A study of Mus musculus with 12 samples.

Results

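The genes described here are 45 genes of the lysosome and of the pump that acidifies it: 8 cathepsins, 20 other soluble lysosomal proteins, 4 lysosomal membrane proteins, 2 transcription factors and 11 genes of the vacuolar proton pump. They were chosen by name, with earlier results of these data known, as the genes of this list that a single-gene probe set on the arrays measures. By this choice all 45 were measured, among 19938 genes in all. The probe set with the highest mean was used where a gene had several, which was the case for Arsb alone.

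Expression was measured on 12 arrays of total RNA from bone marrow derived mast cells (BMMCs), for which mouse marrow is cultured with interleukin 3 (10 ng/ml) and stem cell factor (12.5 ng/ml). There were 3 arrays in each of 4 groups: ACKR2-/- (also written D6-/-) cells at 10 weeks of culture, wild type C57BL/6 cells at 10 weeks, ACKR2-/- cells at 2 weeks, and wild type C57BL/6 cells at 2 weeks. ACKR2 is an atypical chemokine receptor that takes up inflammatory CC chemokines. The labels name the strain C57BL/6 for all groups, and the marrow came from female mice 4 to 6 weeks old. Per the protocols the mast cells were homogeneous after 4 weeks of culture, and some 2-week cultures were purified on a CD117 column, but the labels do not say which. The 3 arrays of a group are called biological replicates without an animal or culture being named, so p-values measure only the spread between these samples. Values are log2 signals after robust multi-array averaging (RMA), on which a difference of 1 is a doubling.

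Lysosomes are acidic organelles in which cathepsins, sulfatases, glycosidases and lipases digest proteins, glycosaminoglycans, glycolipids and lipids. The acid comes from the vacuolar ATPase (V-ATPase), whose cytosolic V1 sector splits ATP and whose membrane V0 sector carries the protons. In mast cells the secretory granules are lysosome-related: they are acidified by the same pump, and they hold lysosomal enzymes such as beta-hexosaminidase beside the mast cell proteases. Many lysosomal genes carry in their promoters an E-box that the factors TFEB, TFE3 and MITF bind, and MITF is also a factor of mast cell development.

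The E-box can be read in the promoters themselves. RefSeq promoter windows of the build GRCm38.p6, which run from 250 bases before to 50 bases after a gene's start, were found for 37 of the 45 genes and not for Ctsb, Ctsh, Galns, Asah1, Atp6v0d2, Atp6v1b2, Atp6v1c1 and Atp6v1h. The palindrome CACGTG was searched on both strands, as were the longer TCACGTG and TCACGTGA that contain it. CACGTG occurred in the windows of 13 of 37 members (35.1%), against 8.09% of the 27025 genes in the table. TCACGTG occurred in 12 of 37 (32.4%), against 4.29% of all genes, and the full palindrome TCACGTGA in 6 of 37 (16.2%), against 1.12%. A match describes these letters and does not show that a factor binds there. The 150 bases before the start are printed for 7 members that hold the motif and differ in role, and then for 2 members, Ctss and Arsb, whose windows do not hold it. Capitals mark CACGTG with a flanking T or A where that makes the longer motif.
Lamp1, chr8:13159011-13159160, plus strand: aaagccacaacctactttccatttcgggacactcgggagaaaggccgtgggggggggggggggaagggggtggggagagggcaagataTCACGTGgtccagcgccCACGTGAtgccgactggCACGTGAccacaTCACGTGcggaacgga
Mcoln1, chr8:3500369-3500518, plus strand: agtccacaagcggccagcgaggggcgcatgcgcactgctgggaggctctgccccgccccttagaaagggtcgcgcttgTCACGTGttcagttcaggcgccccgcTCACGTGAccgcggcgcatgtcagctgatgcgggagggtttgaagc
Glb1, chr9:114400928-114401077, plus strand: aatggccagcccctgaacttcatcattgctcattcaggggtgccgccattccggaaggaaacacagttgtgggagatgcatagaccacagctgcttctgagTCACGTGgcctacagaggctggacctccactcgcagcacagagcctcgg
Naglu, chr11:101069944-101070093, plus strand: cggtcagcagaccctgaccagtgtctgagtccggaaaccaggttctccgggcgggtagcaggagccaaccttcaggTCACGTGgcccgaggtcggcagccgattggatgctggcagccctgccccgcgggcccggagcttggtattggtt
Ctsd, chr7:142387828-142387977, minus strand: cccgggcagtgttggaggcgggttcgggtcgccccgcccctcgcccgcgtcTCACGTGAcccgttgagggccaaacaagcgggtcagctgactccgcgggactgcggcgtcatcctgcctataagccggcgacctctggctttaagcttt
Gaa, chr11:119267813-119267962, plus strand: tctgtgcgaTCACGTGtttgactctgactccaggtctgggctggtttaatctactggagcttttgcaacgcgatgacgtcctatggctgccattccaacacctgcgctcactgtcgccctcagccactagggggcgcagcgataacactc
Atp6v1a, chr16:44139260-44139409, minus strand: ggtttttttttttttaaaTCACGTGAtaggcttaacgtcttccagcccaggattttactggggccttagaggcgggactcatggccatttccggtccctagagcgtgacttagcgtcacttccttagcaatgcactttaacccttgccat
Ctss, chr3:95526636-95526785, plus strand: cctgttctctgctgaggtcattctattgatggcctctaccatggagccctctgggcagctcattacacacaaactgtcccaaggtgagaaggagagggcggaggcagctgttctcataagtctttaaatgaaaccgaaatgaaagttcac
Arsb, chr13:93771529-93771678, plus strand: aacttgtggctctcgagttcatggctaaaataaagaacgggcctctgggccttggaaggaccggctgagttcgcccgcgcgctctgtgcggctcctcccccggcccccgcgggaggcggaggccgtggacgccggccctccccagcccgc
Lamp1 holds 4 copies within 61 bases of its start, Mcoln1 holds 2, and the other 5 members with the motif hold 1 each in the stretch shown. The copy in Glb1 lies 48 bases before the start, that in Naglu 73, that in Ctsd 98, that in Atp6v1a 131 and that in Gaa 140.

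The labels were checked against defining transcripts before any comparison, and 4 arrays went against them. On ACKR2-/- 2-week arrays 1 to 3 and wild type 2-week array 3, Fcer1a, the alpha chain of the mast cell IgE receptor, read 4.83 to 5.47, against 13.74 to 14.14 on the other 8 arrays. Means of 11 mast cell markers lay at 7.19 to 7.26 on these 4 arrays and at 12.33 to 13.07 on the other 8. T and NK cell markers (8 genes) averaged 8.67 to 11.29 on the 4 arrays and 6.52 to 6.98 on the others, and B cell markers (7 genes) 9.72 to 12.50 and 6.75 to 7.20. The 4 arrays were not alike in these. ACKR2-/- 2-week array 3 stood at 8.67 for T and NK cell markers and 12.50 for B cell markers. ACKR2-/- 2-week arrays 1 and 2 and wild type 2-week array 3 stood at 11.18 to 11.29 and 9.72 to 10.01. Xist, transcribed from the inactive X chromosome of females, read 5.77 to 6.23 on the 4 arrays and 13.00 to 13.37 on the others. Kdm5d, a gene of the Y chromosome, ran the other way, at 10.06 to 10.51 on the 4 arrays and 6.04 to 6.42 on the others. The 4 arrays thus read as male in both genes, although every label gives female mice. Wild type 2-week array 3 correlated across genes at 0.996 and 0.997 with ACKR2-/- 2-week arrays 1 and 2, and at 0.890 and 0.894 with the other wild type 2-week arrays. Those ACKR2-/- 2-week arrays correlated at 0.998 with each other. Ackr2, the targeted gene, did not separate the genotypes: it read 8.34, 8.16 and 8.25 on the ACKR2-/- 10-week arrays, against 7.88, 8.26 and 8.35 in wild type, and 8.39, 7.79 and 9.43 on the ACKR2-/- 2-week arrays, against 8.19, 8.29 and 8.38 in wild type. Which part of the gene was deleted is not given in the sources used here, so this probe set does not check the genotype. Group names below are therefore those of the labels, and results are given with and without the arrays concerned.

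A further difference lies within the ACKR2-/- 10-week group. Means of 11 monocyte and macrophage markers were 9.45, 7.61 and 7.43 on its 3 arrays, against 9.25, 10.50 and 9.74 in wild type at 10 weeks. At 2 weeks they were 9.78, 9.76 and 9.53 on the ACKR2-/- arrays, against 8.88, 9.93 and 10.04 in wild type. By this mean ACKR2-/- 10-week arrays 2 and 3 were thus lower than the other 10 arrays. Adgre1 read 7.60 and 6.85 there and Csf1r 6.82 and 6.62, but not all 11 markers were low. Cx3cr1 read 11.24 and 11.09, against 10.77 to 11.23 in wild type at 10 weeks. Fcgr1 read 7.27 and 7.10, against 6.70 to 8.37. In bulk RNA, fewer cells of a type and less RNA per cell cannot be told apart.

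The 45 genes lay high in the range of signals, with mean levels above those of 56.4% (Atp6v0d2) to 99.7% (Ctsd) of genes. Their mean over all 45 was 11.16, 10.71 and 10.73 on the ACKR2-/- 10-week arrays, against 11.09, 11.24 and 10.97 in wild type at 10 weeks. At 2 weeks it was 10.49, 10.54 and 10.65 on the ACKR2-/- arrays, against 11.10, 11.28 and 10.52 in wild type. The wild type mean at 2 weeks thus hides 1 array that lies with the ACKR2-/- ones.

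Across the 12 arrays, 25 of the 45 genes had their 4 lowest values on the ACKR2-/- 2-week arrays and wild type 2-week array 3, a pattern that 15% of all genes show. They include 9 of the 11 pump genes, all but Atp6v0a1 and Atp6v1d, 11 of the 20 other soluble proteins, and 1 of the 8 cathepsins, Ctsd. Ctsh, Arsb, Galns, Scarb2 and Tfeb had their 4 highest values there, 5 members beside 11.8% of all genes. A second set of 9 genes had its 2 lowest values on ACKR2-/- 10-week arrays 2 and 3, a pattern of 4.76% of genes: Ctsb, Ctsh, Ctsl, Ctss, Ctsz, Arsb, Psap, Lipa and Scarb2. Ctsc and Atp6ap1 had their 2 highest values there, beside 6.02% of genes. Both sets are descriptions, since the arrays were set apart after their values were seen. Ctsh, Arsb and Scarb2 belong to both, high on the first arrays and low on the second.

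**Figure D1:**
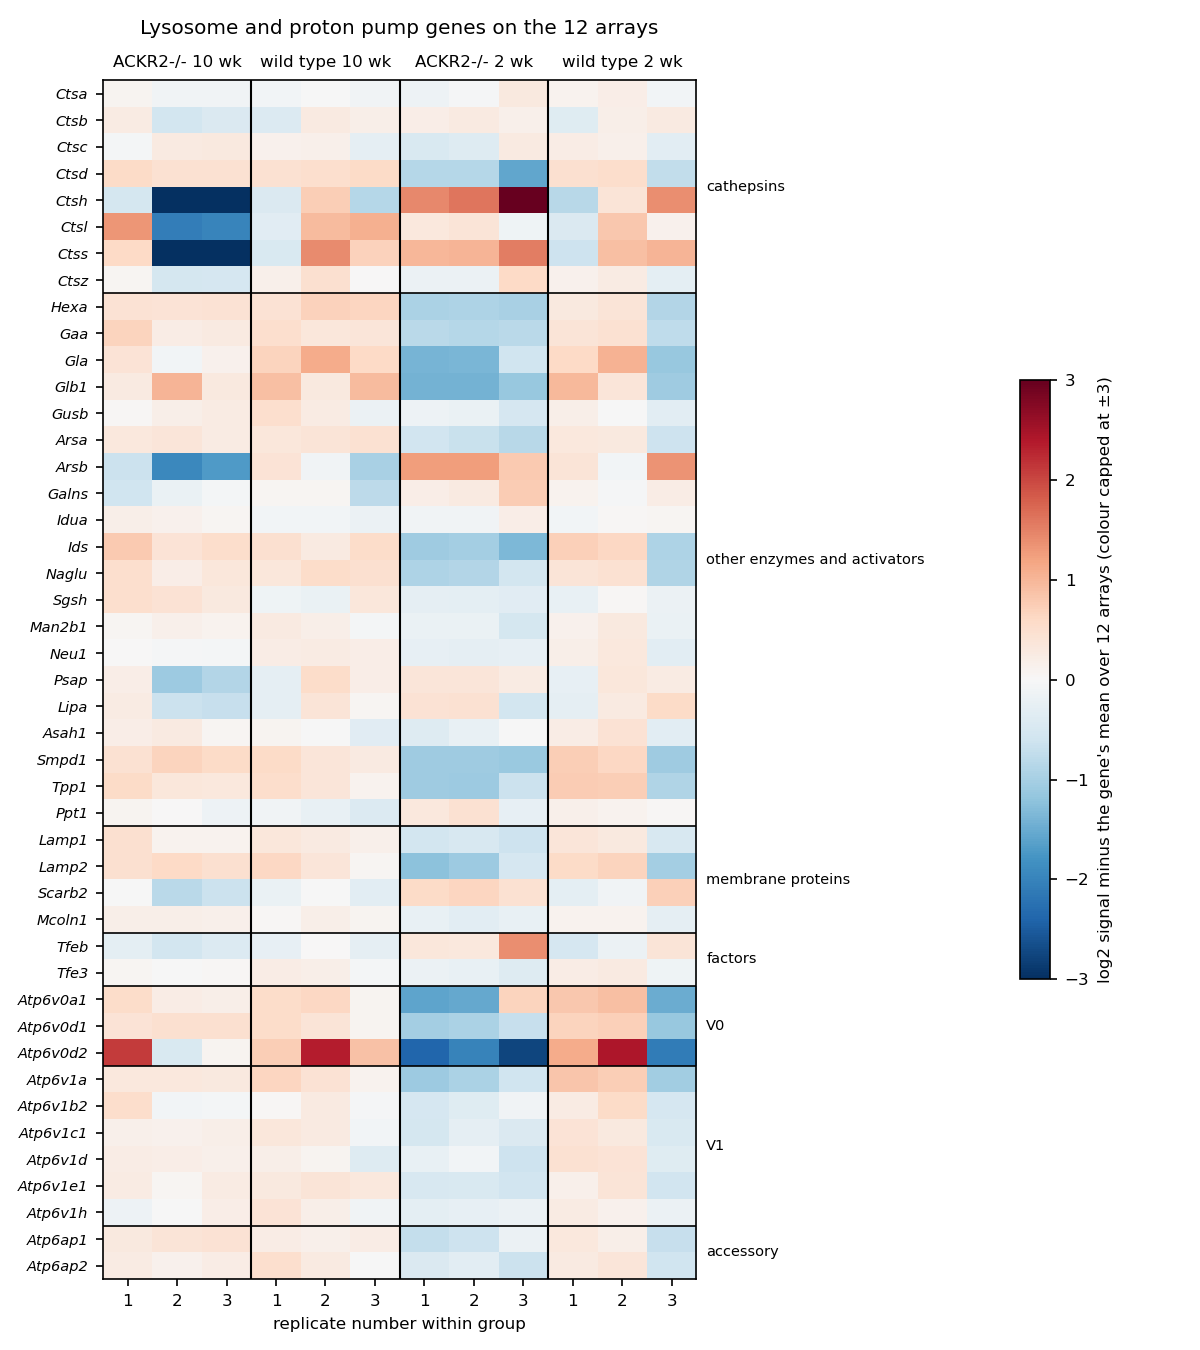
Log2 signal of the 45 genes minus each gene's mean over the 12 arrays, by role, for ACKR2-/- and wild type arrays at 10 weeks and ACKR2-/- and wild type arrays at 2 weeks (replicates 1 to 3 from left to right; colour capped at ±3). Wild type 2-week array 3 follows the ACKR2-/- 2-week arrays, and ACKR2-/- 10-week arrays 2 and 3 are low in several cathepsins.

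The comparison of 10 with 2 weeks among the arrays labelled ACKR2-/- held all the calls. In it 16 of the 45 genes rose (limma adjusted p under 0.05, Benjamini-Hochberg over all genes), beside 10.5% of all genes, and 5 fell, beside 6.33%. All 45 lie above the median level of genes. In a fit of only the genes above it, the same 16 and 5 members stood beside larger shares, 20.1% rising and 10.5% falling. The genes that rose were Ctsd among the cathepsins, 9 other soluble enzymes, the membrane proteins Lamp1, Lamp2 and Mcoln1, and the pump genes Atp6v0d1, Atp6v1e1 and Atp6ap1. Those that fell were Ctsh, Ctss, Arsb, Scarb2 and Tfeb. The median difference over the 45 genes was 0.45, against 0.058 over all genes, and 32 of the 45 lay above 0, beside 58.9% of all genes. Every 10-week array was above every 2-week array in 29 of the 45, beside 26.7% of all genes, and below in 7, beside 17.7%. Mast cell markers differed in the same comparison, 8 of 11 rising with a median difference of 5.40, and so did MHC class II genes, 6 of 6 falling with a median of -4.58, and B cell markers, 7 of 7 falling with a median of -3.32. Of 8 T and NK cell markers 2 fell and 0 rose, with all 8 below 0 and a median of -3.82. Of 11 monocyte and macrophage markers 3 fell and 1 rose, with a median of -1.23. The part of these cell type differences in the lysosomal ones was not tested. All ACKR2-/- 2-week arrays were low in mast cell transcripts and read as male. All ACKR2-/- 10-week arrays were high in mast cell transcripts and read as female. Week of culture, cell content and sex therefore cannot be told apart in this comparison. Rise and fall name only the direction from the 2-week to the 10-week arrays.

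**Figure D2:**
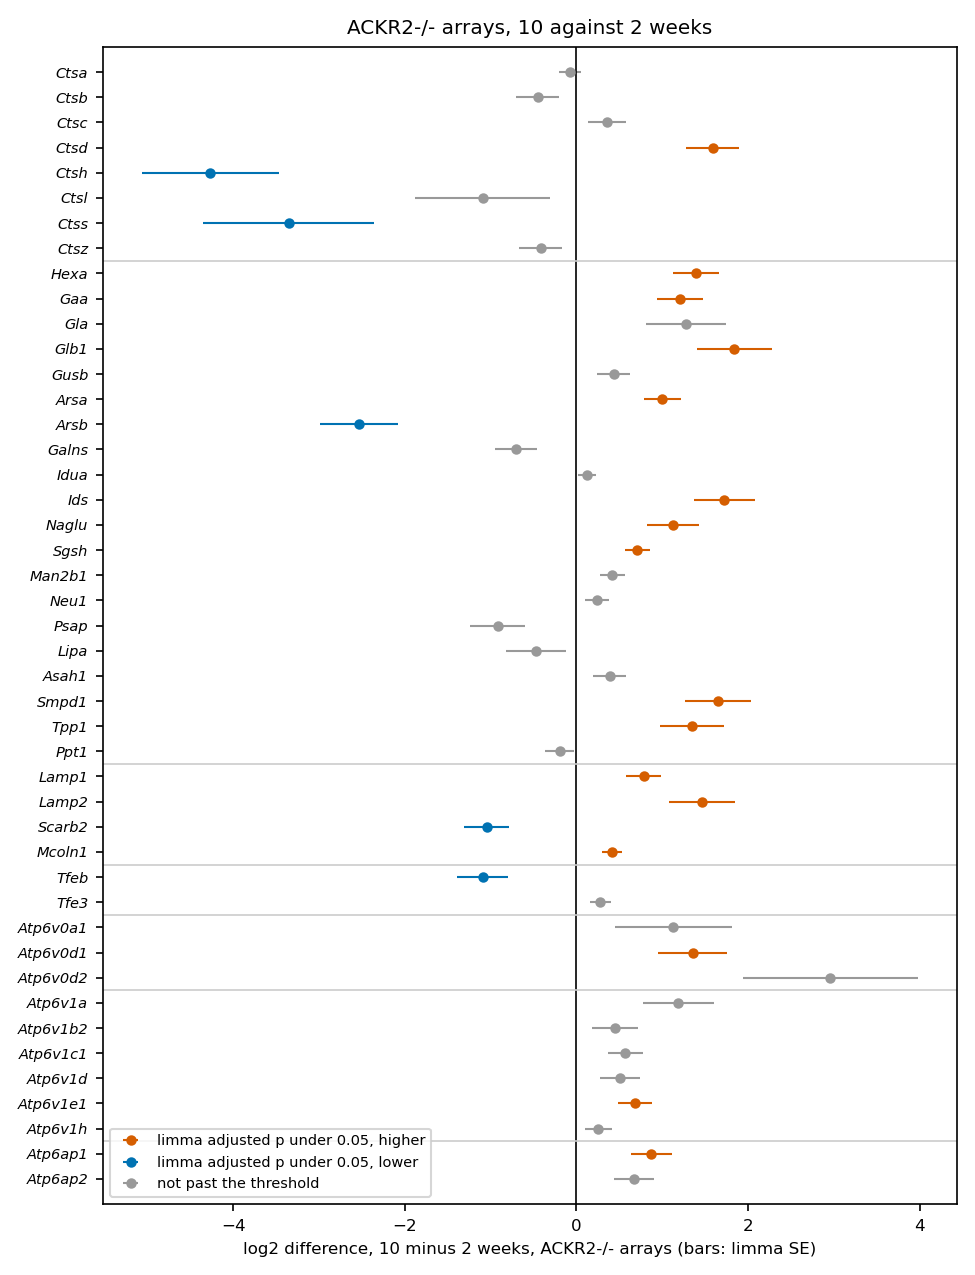
Log2 difference, 10 minus 2 weeks, of the 45 genes on the arrays labelled ACKR2-/-, with limma standard errors, 3 arrays per week. The 16 genes that rose span 0.41 (Mcoln1) to 1.84 (Glb1), and the 5 that fell span -1.05 (Scarb2) to -4.27 (Ctsh).

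Ctsd, the aspartic protease of lysosomes, read 14.03, 13.92 and 13.91 on the ACKR2-/- 10-week arrays, against 12.60, 12.60 and 11.90 on the ACKR2-/- 2-week arrays. Wild type arrays read 13.93, 13.96 and 14.03 at 10 weeks, against 13.95, 13.99 and 12.72 at 2 weeks. The ACKR2-/- arrays of the 2 weeks did not overlap, and wild type 2-week array 3 was the only wild type array near the lower values. Ctsd was 3-fold higher at 10 weeks in the ACKR2-/- arrays, by 1.59 ± 0.31 on the log2 scale (limma SE, adjusted p = 0.0138).

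Glb1, the lysosomal beta-galactosidase, showed the largest rise of the soluble enzymes. It read 11.72, 12.47 and 11.74 on the ACKR2-/- 10-week arrays, against 10.05, 10.05 and 10.31 on the 2-week ones, a difference of 1.84 ± 0.44 (limma adjusted p = 0.0195). Wild type Glb1 read 12.37, 11.75 and 12.41 at 10 weeks, against 12.42, 11.82 and 10.39 at 2 weeks. Every 10-week array of either label exceeded every ACKR2-/- 2-week array, and of the wild type ones only array 3 at 2 weeks was near them.

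Ids, the iduronate sulfatase that acts on heparan and dermatan sulfate, read 12.71, 12.33 and 12.44 on the ACKR2-/- 10-week arrays, against 10.84, 10.90 and 10.56 on the 2-week ones. Its difference was 1.72 ± 0.35 (limma adjusted p = 0.0142), or 3.3-fold. Wild type Ids read 12.40, 12.19 and 12.46 at 10 weeks, against 12.62, 12.54 and 10.99 at 2 weeks, again with array 3 alone low. Smpd1, the acid sphingomyelinase, read 11.95, 12.16 and 12.07 on the ACKR2-/- 10-week arrays, against 10.42, 10.42 and 10.38 on the 2-week ones, with a difference of 1.65 ± 0.38 (limma adjusted p = 0.0177). The ACKR2-/- 2-week arrays lay close together in Smpd1, and wild type 2-week array 3 read 10.41, where its fellow wild type arrays read 12.23 and 12.10.

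The other 6 soluble enzymes that rose did so by 1.6- to 2.6-fold. Hexa, the alpha chain of beta-hexosaminidase, whose release is a common measure of mast cell degranulation, rose by 1.39 ± 0.27. It read 12.23, 12.20 and 12.23 on the ACKR2-/- 10-week arrays, against 10.83, 10.85 and 10.82 on the 2-week ones. Tpp1, a tripeptidyl peptidase, rose by 1.35 ± 0.37, Gaa, which digests glycogen, by 1.21 ± 0.27, and Arsa, which desulfates sulfatide, by 1.00 ± 0.21. Naglu and Sgsh, which act in turn on heparan sulfate, rose by 1.13 ± 0.30 and 0.71 ± 0.14. The limma adjusted p-values of these 6 lay between 0.0137 (Hexa) and 0.0336 (Tpp1). Gla, the alpha-galactosidase, missed the threshold with a difference of 1.28 ± 0.47 (limma adjusted p = 0.0887).

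Ctsh, an aminopeptidase among the cathepsins, had the largest difference of the 45 in this comparison. It read 8.52, 6.05 and 5.96 on the ACKR2-/- 10-week arrays, against 10.48, 10.65 and 12.20 on the 2-week ones. The difference was -4.27 ± 0.80, 19.2 times lower at 10 weeks (limma adjusted p = 0.0137). Wild type Ctsh read 8.61, 9.78 and 8.19 at 10 weeks, against 8.21, 9.44 and 10.44 at 2 weeks, and these overlapped.

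Ctss, the cathepsin that trims the MHC class II invariant chain in antigen presenting cells, read 11.08, 6.94 and 6.89 on the ACKR2-/- 10-week arrays, against 11.47, 11.50 and 12 on the 2-week ones. It was 10.2 times lower, a difference of -3.35 ± 0.99 (limma adjusted p = 0.0428). ACKR2-/- 10-week array 1 was close to the 2-week arrays, and the fall lay on arrays 2 and 3. Wild type Ctss read 10.01, 11.90 and 11.17 at 10 weeks, against 9.84, 11.37 and 11.48 at 2 weeks, with overlap. Cd74, the invariant chain itself, read 11.58, 6.70 and 6.84 on the ACKR2-/- 10-week arrays, against 13.47, 13.50 and 14.10 on the 2-week ones.

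The other cathepsins did not pass the test in this comparison. Ctsl, a cysteine endopeptidase, had the split of Ctss at 10 weeks: it read 10.87, 7.47 and 7.57 on the ACKR2-/- 10-week arrays, against 9.86, 9.92 and 9.41 on the 2-week ones, so array 1 was above and arrays 2 and 3 below. Ctsb, a widespread cysteine protease, read 12.61, 11.82 and 11.93 against 12.56, 12.63 and 12.53. Ctsc, which activates the granule proteases of mast cells, read 12.19, 12.52 and 12.54 against 11.80, 11.86 and 12.51, and Ctsa and Ctsz, which are carboxypeptidases, also overlapped between the weeks.

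Arsb, the sulfatase of dermatan and chondroitin sulfate, was the only soluble enzyme outside the cathepsins to fall. It read 8.64, 7.34 and 7.58 on the ACKR2-/- 10-week arrays, against 10.55, 10.54 and 10.08 on the 2-week ones, a difference of -2.54 ± 0.46 (limma adjusted p = 0.0137). Wild type Arsb read 9.69, 9.19 and 8.31 at 10 weeks, against 9.67, 9.20 and 10.63 at 2 weeks. A second Arsb probe set read 8.67, 7.78 and 7.58 on the ACKR2-/- 10-week arrays, against 10.07, 9.97 and 9.38 on the 2-week ones, the same order of groups.

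**Figure D3:**
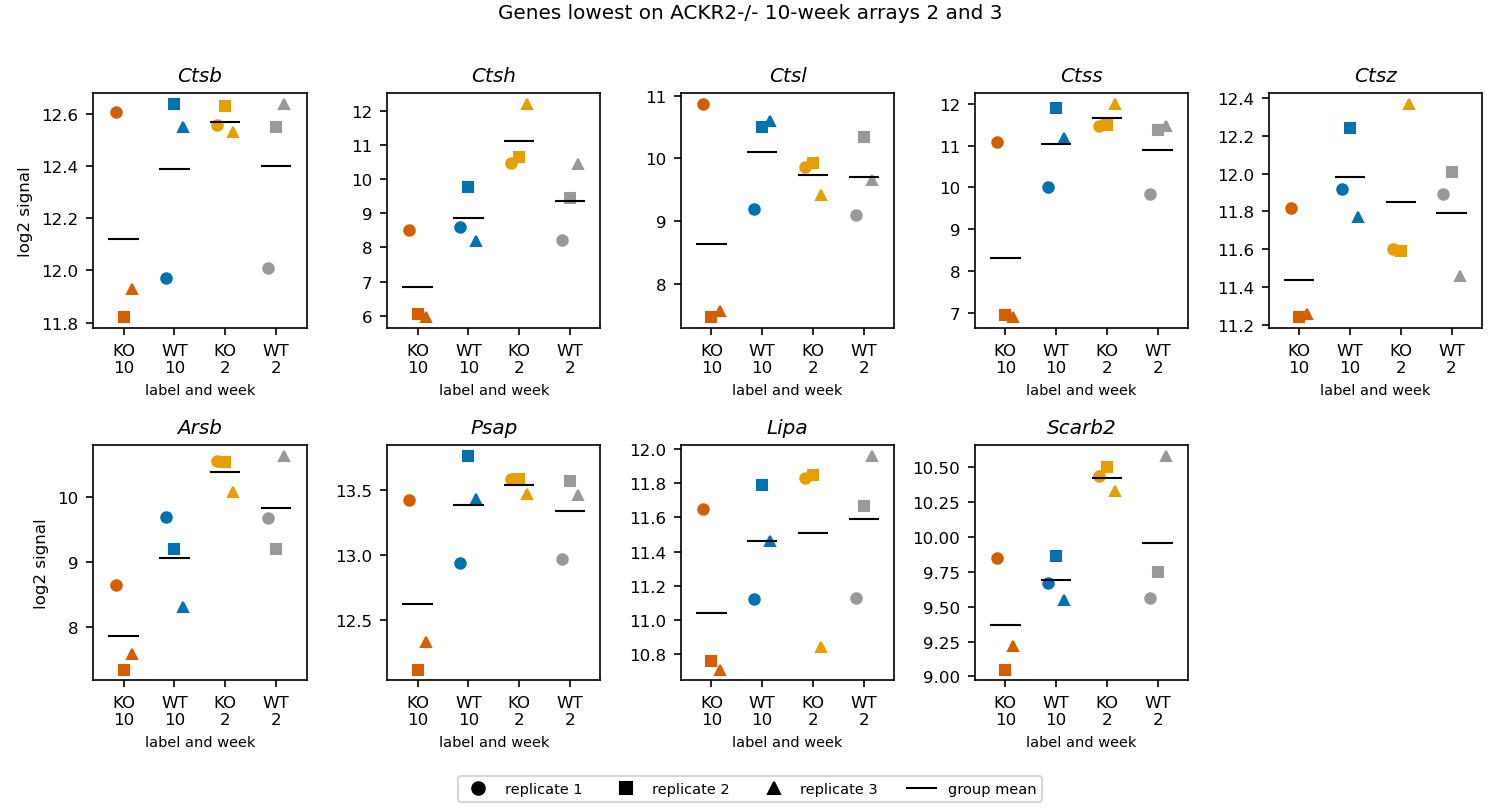
Log2 signal on each array (symbols mark the replicate number, lines the group mean) of the 9 genes with their 2 lowest values on ACKR2-/- 10-week arrays 2 and 3. In Ctss, arrays 2 and 3 read 6.94 and 6.89 and array 1 reads 11.08, within the range of the wild type 10-week arrays.

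All 4 membrane proteins passed the test, 3 rising and 1 falling. Lamp2, a lysosomal glycoprotein with a role in chaperone-mediated autophagy, read 12.17, 12.29 and 12.18 on the ACKR2-/- 10-week arrays, against 10.47, 10.59 and 11.18 on the 2-week ones, a difference of 1.46 ± 0.39 (limma adjusted p = 0.0282). Lamp1, the glycoprotein that marks lysosomes and appears on the surface of degranulating cells, read 12.37, 11.98 and 11.99, against 11.33, 11.39 and 11.25, a difference of 0.79 ± 0.20 (limma adjusted p = 0.0263). Neither overlapped between the weeks, and wild type 2-week array 3 read 10.68 for Lamp2 and 11.40 for Lamp1, beside at least 11.74 and 12.04 on the other 5 wild type arrays.

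Mcoln1, a lysosomal calcium channel, had the smallest difference of the 4, with 11.52, 11.54 and 11.51 on the ACKR2-/- 10-week arrays, against 11.14, 11.05 and 11.14 on the 2-week ones. Its difference was 0.41 ± 0.11, or 1.33-fold (limma adjusted p = 0.0334). Scarb2, the membrane receptor that carries beta-glucocerebrosidase to lysosomes, ran the other way, with 9.85, 9.05 and 9.22 against 10.44, 10.50 and 10.33, a difference of -1.05 ± 0.27 (limma adjusted p = 0.0247).

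All 11 pump genes lay above 0 in this comparison, with a median difference of 0.68 and a range of 0.25 (Atp6v1h) to 2.96 (Atp6v0d2). Only 3 passed the test, 1 in each part of the pump. Atp6v0d1, the widespread d subunit of the V0 stalk, read 11.97, 12.04 and 12.04 on the ACKR2-/- 10-week arrays, against 10.53, 10.60 and 10.87 on the 2-week ones, a difference of 1.35 ± 0.40 (limma adjusted p = 0.0431). Atp6v1e1, a V1 stalk subunit, read 10.90, 10.73 and 10.90, against 10.18, 10.21 and 10.09, a difference of 0.68 ± 0.20 (limma adjusted p = 0.0408). Atp6ap1, an accessory protein of pump assembly, read 12.33, 12.43 and 12.47, against 11.32, 11.42 and 11.87, a difference of 0.88 ± 0.24 (limma adjusted p = 0.0303). The 10- and 2-week ACKR2-/- arrays did not overlap in any of the 3.

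Atp6v0d2, the d subunit known from osteoclasts and macrophages, had the largest positive difference of the 45. It read 10.62, 8.07 and 8.61 on the ACKR2-/- 10-week arrays, against 6.14, 6.51 and 5.76 on the 2-week ones, and 9.26, 10.87 and 9.40 on the wild type 10-week arrays, against 9.63, 10.94 and 6.43 on the 2-week ones. The weeks did not overlap in the ACKR2-/- arrays, but the difference of 2.96 ± 1.02 missed the threshold (limma adjusted p = 0.0745). Atp6v0a1, a V0 subunit of the proton path, read 11.33, 11.01 and 10.95 on the ACKR2-/- 10-week arrays, against 9.20, 9.25 and 11.44 on the 2-week ones. ACKR2-/- 2-week array 3 thus lay with the 10-week arrays for this subunit, and away from its own group. That array also stood apart in B cell markers, at 12.50, against 10.01 on ACKR2-/- 2-week arrays 1 and 2. The catalytic subunit Atp6v1a read 11.24, 11.25 and 11.23 on the ACKR2-/- 10-week arrays, against 9.83, 9.97 and 10.34 on the 2-week ones, without overlap but short of the threshold.

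**Figure D4:**
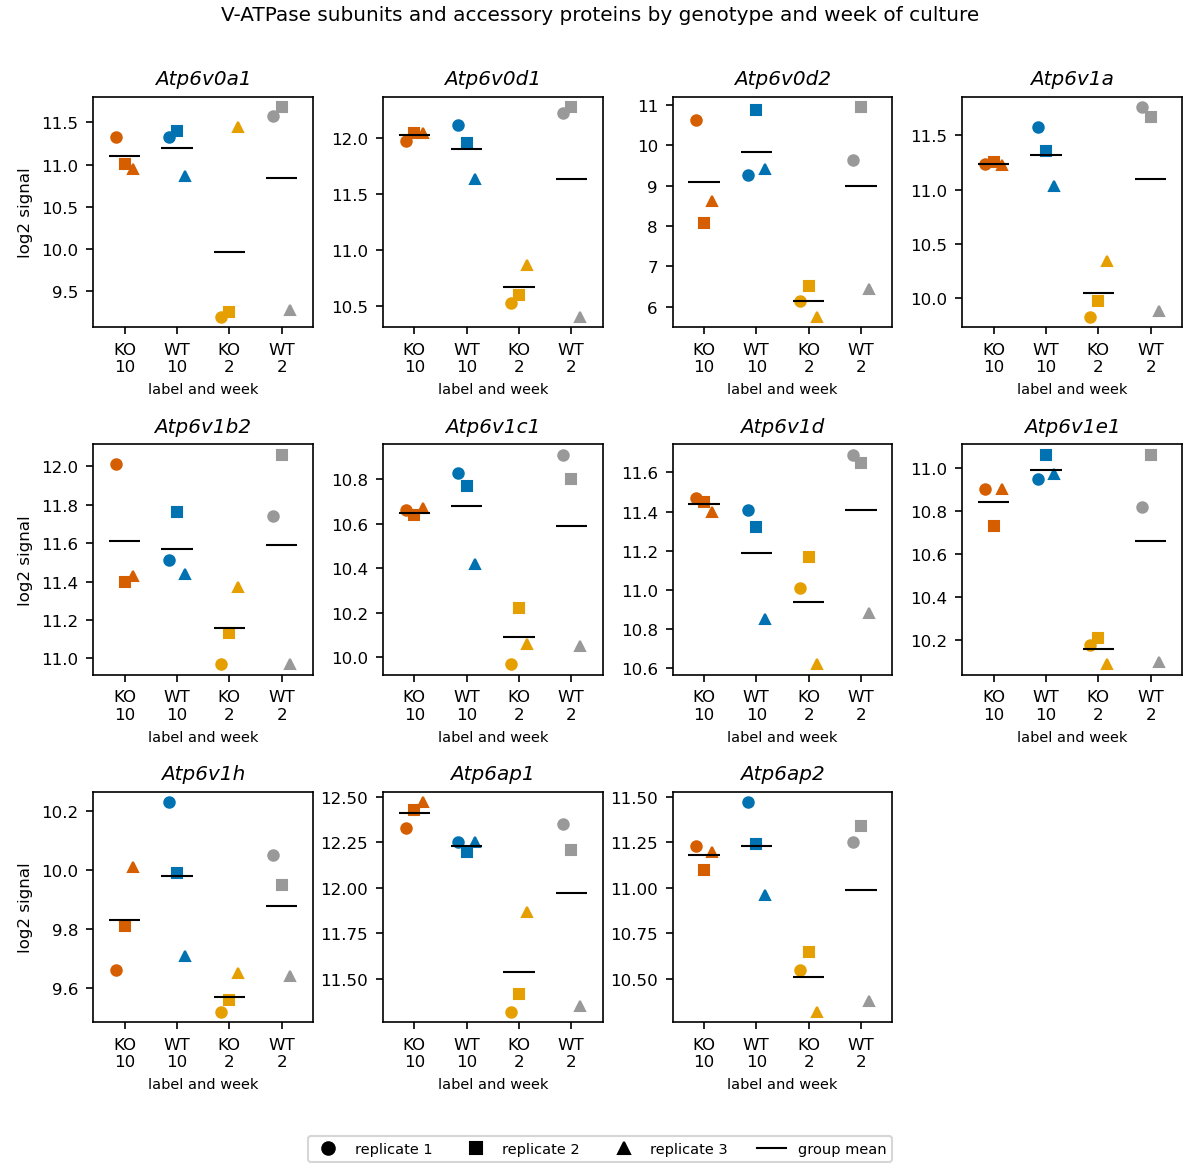
Log2 signal of the 11 proton pump genes on each array (symbols mark the replicate number, lines the group mean), for ACKR2-/- and wild type arrays at 10 weeks and at 2 weeks. Wild type 2-week array 3 lies apart from the other 2 wild type 2-week arrays in every panel, and ACKR2-/- 2-week array 3 lies apart from its group in Atp6v0a1 at 11.44.

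The factors of the family had differences of both signs. Tfeb, which drives lysosomal genes, read 9.07, 8.80 and 8.95 on the ACKR2-/- 10-week arrays, against 9.69, 9.67 and 10.74 on the 2-week ones, and fell by 1.09 ± 0.29 on the log2 scale (limma adjusted p = 0.0294). Tfe3, its relative, read 10.26, 10.19 and 10.24, against 10.04, 10.00 and 9.82, a difference of 0.28 ± 0.13 that missed the threshold. Mitf, which is not one of the 45, read 11.13, 11.09 and 11.07, against 7.86, 7.90 and 7.46, and rose by 3.36 ± 0.62 (limma adjusted p = 0.0137). Wild type Mitf read 10.92, 10.67 and 10.66 at 10 weeks, against 10.93, 11.06 and 8.07 at 2 weeks, with array 3 alone low.

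The promoter motif shown above can be set beside these differences. Of the 12 members with TCACGTG in the promoter window, 9 rose and 0 fell, and Ctsa, Gla and Atp6v1a did not pass, with a median difference of 1.16. Of all 835 tested genes with TCACGTG in a window, 15.9% rose and 6.95% fell, with a median of 0.084, and of the 14779 whose windows do not hold it, 10.7% rose and 6.25% fell. Of the 25 members whose windows do not hold the motif, 7 rose, 4 fell and 14 did not pass, with a median of 0.36. The 4 that fell, Ctss, Arsb, Scarb2 and Tfeb, are all among these 25, and Ctsh is one of the genes without a window. Among the members whose stretches are printed, Lamp1 with 4 copies rose by 0.79 and Mcoln1 with 2 by 0.41. With 1 copy in the stretch shown, Glb1 rose by 1.84, Ctsd by 1.59, Gaa by 1.21 and Naglu by 1.13. Atp6v1a, also with 1, differed by 1.19 without passing. Whether the motif or its number of copies bears on these differences was not tested.

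Other genes of the pathway moved in both directions too. Of 19 further lysosomal hydrolases, 8 rose and 3 fell, where 10.5% of all genes rose and 6.33% fell. Among them Ctsf, a cysteine cathepsin, rose by 1.77 ± 0.32 and Dnase2a, the acid DNase, by 1.29 ± 0.31, whereas Acp5, the tartrate-resistant acid phosphatase, fell by 3.69 ± 0.71 and Lgmn, the asparaginyl endopeptidase, fell by 3.01 ± 0.73. Of 20 further membrane proteins, 6 rose and 1 fell: Cd63, a tetraspanin of lysosomes and mast cell granules, rose by 4.45 ± 0.82, the sialic acid transporter Slc17a5 rose by 1.52 ± 0.32, and the channel Tpcn1 fell by 0.77 ± 0.24. The limma adjusted p-values of these 7 lay between 0.0137 and 0.0476.

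Beside the same 10.5% and 6.33% of all genes, 5 of 13 further pump genes rose and 0 fell, with Atp6v1g1, a V1 stalk subunit, at 1.06 ± 0.20 and Atp6v0b, a V0 proteolipid, at 1.06 ± 0.28. Of 18 genes of lysosome regulation, 11 rose and 0 fell, led by Mitf and by Bhlhe40, a basic helix-loop-helix repressor, at 2.61 ± 0.64. Of 10 genes of enzyme sorting to the lysosome, 0 passed limma's test after Benjamini-Hochberg adjustment, with 4 under an unadjusted p of 0.05.

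These calls rested on few arrays. Without ACKR2-/- 10-week array 2, or without array 3, 0 of the 45 genes and 0 of all 19938 genes passed limma's test, with adjusted p-values of the 21 members between 0.0555 and 0.157. Without ACKR2-/- 10-week array 1, 8 rose and 6 fell, beside 8.33% and 4.64% of all genes, Ctsl and Psap joining the genes that fell and Tfeb leaving them. Without ACKR2-/- 2-week array 1, 2 or 3 the rises numbered 6, 5 and 12, beside 4.93%, 4.58% and 7.73% of all genes, with 3 falls each, beside 2.67%, 2.39% and 5.58%. Without wild type 2-week array 3, which enters through the shared spread, 22 rose and 5 fell, beside 14.4% and 10.6% of all genes. No sign among the 21 genes changed in any of these.

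At 2 weeks, 0 of the 45 genes passed limma's test between ACKR2-/- and wild type, as did 0% of all genes, while 17.5% of all genes had an unadjusted p under 0.05. The differences leaned to lower values on the ACKR2-/- arrays: 34 of the 45 lay below 0, beside 54.6% of all genes, with a median of -0.39, against -0.024 over all genes. All 11 pump genes lay below 0, with a median of -0.50. In 8 of the 45 every ACKR2-/- array was below every wild type array, beside 8.6% of all genes: Ctsd, Hexa, Gaa, Glb1, Ids, Sgsh, Lamp1 and Tfe3. Only Ctsh was above in every array, at 10.48, 10.65 and 12.20, against 8.21, 9.44 and 10.44, beside 4.97% of all genes.

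The 6 members with the lowest p at 2 weeks were Ctsd (-1.19 ± 0.31), Ids (-1.28 ± 0.35), Hexa (-0.89 ± 0.27), Glb1 (-1.41 ± 0.44), Arsa (-0.69 ± 0.21) and Gaa (-0.86 ± 0.27), each with a limma adjusted p of 0.225. Hexa shows the arrangement: 10.83, 10.85 and 10.82 on the ACKR2-/- arrays, against 12.09, 12.17 and 10.90 in wild type. Gaa read 9.92, 9.86 and 9.92, against 11.12, 11.17 and 9.97, and Arsa read 8.89, 8.79 and 8.62, against 9.77, 9.76 and 8.84. Wild type array 3 lay next to the ACKR2-/- arrays in Hexa and Gaa and among them in Arsa, and the other 2 wild type arrays lay well above.

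Without wild type 2-week array 3, 26 of the 45 genes were lower and 2 higher on the ACKR2-/- arrays, beside 13.5% and 10.2% of all genes. The lower ones comprised Ctsd, 12 of the 20 other soluble proteins, 3 of the 4 membrane proteins, 9 of the 11 pump genes and Tfe3, and the higher ones were Scarb2 and Tfeb. Smpd1 then differed by -1.76 ± 0.12 (limma adjusted p = 3.46e-06) and Atp6v0d2 by -4.14 ± 0.73 (limma adjusted p = 0.00211). This sets 3 arrays low in mast cell transcripts against 2 that are high in them, at 7.20 to 7.26 and 12.86 to 13.06 for the mean of the 11 mast cell markers, so label and cell content cannot be told apart in it.

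At 10 weeks, where all 6 arrays were high in mast cell transcripts, 0 of the 45 genes passed limma's test between ACKR2-/- and wild type, as did 0% of all genes, while 7.85% of all genes had an unadjusted p under 0.05. The median difference was -0.058, against 0.008 over all genes, and 30 of the 45 lay below 0, beside 48.4% of all genes. In 4 genes, Gla, Neu1, Tfeb and Atp6v1e1, every ACKR2-/- array was below every wild type array (5.98% of all genes), and in 2, Idua and Atp6ap1, every one was above (8.61%). For the main members the 95% interval of the difference ran from -0.70 to 0.67 for Ctsd, from -0.48 to 0.42 for Lamp1, from -0.77 to 1.01 for Atp6v0d1 and from -3.01 to 1.52 for Atp6v0d2. These intervals use a spread shared with the 2-week groups. In a fit without the 4 arrays low in mast cell transcripts, 0 of the 45 genes and 0% of all genes passed limma's test. The differences and limma standard errors were then -0.017 ± 0.096 for Ctsd, -0.033 ± 0.132 for Lamp1, 0.123 ± 0.134 for Atp6v0d1 and -0.747 ± 0.701 for Atp6v0d2.

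The 6 members with the lowest p at 10 weeks in the fit of all 12 arrays were Sgsh, Ctss, Arsb, Ctsh, Psap and Idua. Without the 4 arrays low in mast cell transcripts, Gla came first, at -0.64 ± 0.19 (limma adjusted p = 0.267). Arsb, Ctsz, Ctsh, Neu1 and Ctss followed it. The values below are those of the fit of all 12 arrays. Sgsh read 10.91, 10.84 and 10.69 on the ACKR2-/- arrays, against 10.28, 10.21 and 10.73 in wild type, a difference of 0.40 ± 0.14 with overlap (limma adjusted p = 0.543). Ctss read 11.08, 6.94 and 6.89, against 10.01, 11.90 and 11.17, a difference of -2.72 ± 0.99 (limma adjusted p = 0.555; 95% interval -4.92 to -0.52). Arsb differed by -1.21 ± 0.46, Ctsh by -2.02 ± 0.80 and Psap, the precursor of the saposins, by -0.75 ± 0.32, with limma adjusted p-values of 0.563 to 0.609. In each of these 4 genes ACKR2-/- array 1 lay within the wild type range and arrays 2 and 3 below it. Idua, the iduronidase, read 10.27, 10.22 and 10.15, against 10.02, 10.02 and 9.91, a small difference of 0.23 ± 0.11 without overlap (limma adjusted p = 0.636).

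Without ACKR2-/- 10-week array 1, Ctss (-4.11 ± 0.58, limma adjusted p = 0.0192) and Ctsl (-2.58 ± 0.44, limma adjusted p = 0.0397) were lower on the remaining ACKR2-/- arrays, 2 of 45 beside 0.481% of all genes, and 0 were higher. Both genes had already been seen to have their 2 lowest values on arrays 2 and 3. These p-values therefore describe that split and do not test it. The same 2 arrays were the lowest in monocyte and macrophage markers, at 7.61 and 7.43, against 9.25 to 10.50 in wild type at 10 weeks, and in MHC class II genes, at 7.22 and 7.33, against 10.15 to 10.58. They were also low in 5 basophil markers, at 8.07 and 7.98, against 11 to 11.22, and in 12 neutrophil markers, at 6.92 and 6.74, against 8.27 to 10.31. Array 1, with Ctss at 11.08, stood at 9.45, 10.09, 10.69 and 7.97 for these 4 lists. The part of these marker lists in the cathepsin values was not tested. Ctsd, at 13.91 to 14.03 on all 3 ACKR2-/- 10-week arrays, did not show the split.

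**Figure D5:**
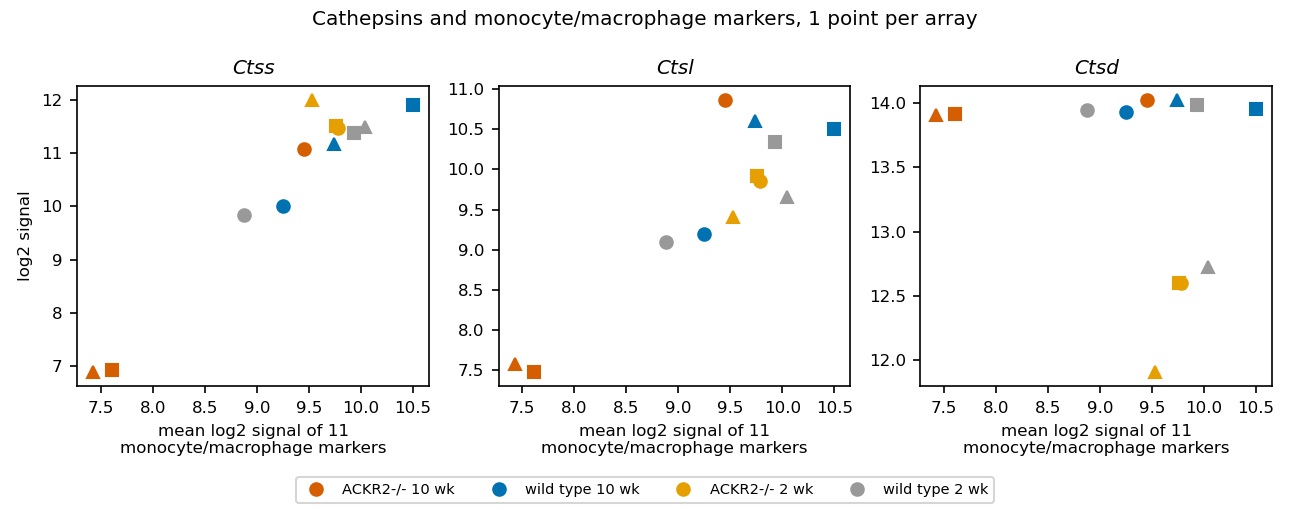
Log2 signal of Ctss, Ctsl and Ctsd on each of the 12 arrays against the mean log2 signal of 11 monocyte and macrophage markers on the same array (colour marks the label and week, symbols the replicate number). The 2 arrays with marker means of 7.61 and 7.43 hold the lowest Ctss and Ctsl, while the lowest Ctsd values, 11.90 to 12.72, are those of the 4 arrays low in mast cell transcripts.

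Between 10 and 2 weeks in wild type, 0 of the 45 genes passed limma's test, as did 0% of all genes, while 6.65% of all genes had an unadjusted p under 0.05. The median difference was 0.13, against 0.028 over all genes, and 30 of the 45 lay above 0, beside 55.5% of all genes. Hexa had the lowest p, at 12.22, 12.47 and 12.43 on the 10-week arrays, against 12.09, 12.17 and 10.90 on the 2-week ones, a difference of 0.65 ± 0.27 (limma adjusted p = 0.727). Next came Ppt1, a palmitoyl thioesterase, at -0.33 ± 0.17, Arsa at 0.41 ± 0.21, Arsb at -0.77 ± 0.46, Atp6v1e1 at 0.33 ± 0.20 and Naglu at 0.47 ± 0.30.

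In 2 genes, Hexa and Arsa, every 10-week array was above every 2-week array (5.29% of all genes), and in 1, Ppt1, every one was below (3.45%). Array 3 was the lowest 2-week array of Hexa and Arsa. Without wild type 2-week array 3 the median over the 45 genes was -0.05, the sign turned in 24 of the 45 and 0 passed limma's test. Then Asah1, the acid ceramidase, had the lowest p, with a difference of -0.42 ± 0.16 (limma adjusted p = 0.602), followed by Atp6v1d, a V1 subunit, at -0.48 ± 0.19 and Tpp1 at -0.42 ± 0.17. Hexa was then 0.24 ± 0.10.

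The interaction, which asks whether the difference between weeks is larger in ACKR2-/- than in wild type, gave 0 calls among the 45 and 0% among all genes by limma, with 11.4% of all genes under an unadjusted p of 0.05. Of the 45 values, 34 lay above 0, beside 53.4% of all genes. The lowest p among the members belonged to Ctsh, at -3.76 ± 1.13, and Sgsh (0.58 ± 0.20), Ids (1.43 ± 0.50), Arsb (-1.77 ± 0.64), Ctsd (1.17 ± 0.44) and Smpd1 (1.34 ± 0.54) followed, each with a limma adjusted p of 0.424. The rises and falls over time in the ACKR2-/- arrays were thus not shown to differ from wild type. Without wild type 2-week array 3, 22 of the 45 had a positive and 3 a negative interaction past the threshold, beside 9.78% and 5.96% of all genes: Ids then stood at 1.95 ± 0.20 and Ctsh at -4.30 ± 1.11. In that fit only the ACKR2-/- 2-week group was low in mast cell transcripts and read as male. A genotype by week effect therefore cannot be told apart from cell content or sex in it.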

How the data were processed

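The authors deposited log2 expression values, for which the submitters' processing notes name RMA and Partek 6.5, as 1 table of 35399 probe sets by 12 arrays. RMA corrects background, equalises the arrays and summarises probes, and gives no detection call, so signal over background was not examined. That the values are on a log2 scale follows from their range, which ran from 2.66 to 14.91 with array medians of 7.76 to 7.90; genes were not centred. The genome build is not given in the sources used here. No scanner files were used, so slide and scan batches were not examined, and the number of arrays limits the precision.

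A platform annotation gave 1 symbol to 21789 probe sets, several to 1621 and none to 11989. The first of these made 19938 genes, and the probe set with the highest mean stood for a gene. A model with 1 mean per group over all 12 arrays was fitted with limma 3.58.1 in R 4.3.3 (8 residual and 2.39 prior degrees of freedom), with Benjamini-Hochberg adjustment over all genes in each comparison. Errors of differences are limma's standard errors. The fit was run on simulated data with known changes. Those data had independent noise and no arrays that go against their labels, so they do not test that case.

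Members and gene lists were chosen with earlier results of these data known. Full values were given, within each role, to the 3 largest positive and 3 largest negative differences past the threshold, and where none passed, to the 6 lowest p. In each pathway list the 2 largest in each direction were named, and any other member named serves as an example. Cd74, Adgre1, Csf1r, Fcer1a and Mitf were named by rule. Xist, Kdm5d, Cx3cr1 and Fcgr1 were added after their values were seen. Deviations from the group means were correlated between arrays of the same replicate number. Only between wild type arrays of 2 and 10 weeks were all of these correlations positive, at 0.166 to 0.359. This comes from the data alone and does not show a pairing. Number 3 sets wild type 2-week array 3, with Xist at 5.77, beside wild type 10-week array 3, with Xist at 13.11.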

Additional observations from a re-analysis of the deposited data

How the results depend on the processing

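Of 39 differences, those of the members past the threshold or with the lowest p in a comparison between groups, none changed sign under the settings tried. Their 798 recomputed values had 683 that kept their side of the threshold, 102 that lost it and 13 that gained it. The 39 were picked by their p-values in these same data, and several settings alter the spread and not the difference. An unchanged sign was thus in part fixed in advance. Of the other differences between groups some did change sign: over all 45 members, at least 1 setting turned the sign of 32 members over time in wild type, 16 between genotypes at 10 weeks, 7 at 2 weeks and 1 over time in ACKR2-/- (Ctsa), and of 4 in the interaction, none past the threshold on either side. For 10 against 2 weeks in ACKR2-/-, 16 genes rose and 5 fell. Leaving out 1 array at a time gave 0 to 22 rises and 0 to 6 falls, with 0 of both without ACKR2-/- 10-week array 2 or 3, 6 and 3 without ACKR2-/- 2-week array 1, and 5 and 3 without array 2. Array weights, which let the arrays count unequally, gave 32 and 11, beside 28.9% and 19% of all genes. Estimating these weights gave a convergence warning, so all counts under array weights are less certain. For ACKR2-/- against wild type at 2 weeks, with 0 calls, leaving out 1 array gave 0 to 2 higher and 0 to 26 lower, the highest without wild type 2-week array 3, and array weights gave 4 higher and 30 lower, beside 19.8% and 26.3% of all genes. At 10 weeks, leaving out 1 array gave 0 to 2 lower, the 2 without ACKR2-/- array 1. For the interaction, leaving out 1 array gave 0 to 22 higher and 0 to 3 lower, and array weights gave 23 and 3, beside 12.6% and 8.14% of all genes. A fit on only the groups compared gave 24 rises over time in ACKR2-/- and 5 falls, beside 15% and 10.1% of all genes. With the fit limited to genes above the median level, where all 45 lie, 16 members rose and 5 fell over time in ACKR2-/-, beside 20.1% and 10.5% of those genes. Centring the arrays moved the median of all genes in this comparison to 0.16, against 0.058. With the replicate number as a block, 13 rose and 4 fell over time in ACKR2-/-, beside 9.22% and 5.31% of all genes, and 0 passed in the other comparisons; restricting the block to wild type, an alternative chosen after seeing the data, also gave 0. The causes of these shifts were not tested.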
